A study of Arabidopsis thaliana with 4 samples.

Results

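The 130 regions described here are long runs of consecutive high tiles in a profile of trimethylated histone H3 at lysine 36 (H3K36me3), made by chromatin immunoprecipitation (ChIP) on tiling arrays in Arabidopsis thaliana. A domain was a run of 8 or more consecutive probe identifiers, ordered by plate set, plate, row and column from plate TA01 to plate TC13, whose mean log ratio lay above 1 relative to the array median. A missing identifier or value ended a run. The domains held 1334 tiles, 6.62% of the 20140 tiles with a value on these 213 plates and part of the 21685 probes with a value in all. The members were chosen by the measured log ratios of both replicates, so their high level follows from the choice and is given as a description, without a test.

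The profile came from whole seedlings of the Col-0 ecotype, 10 days old per the labels, grown in liquid medium without treatment. ChIP DNA, obtained with a commercial H3K36me3 antibody, was hybridised together with input DNA, and each of 2 pairs of extracts was put on 2 arrays with Cy3 and Cy5 exchanged. Both arrays of an exchange held identical values at all 21685 probes, so each pair of extracts was counted as 1 replicate (n = 2). Nothing in the labels says whether the 2 replicates came from separate cultures, and whole seedlings mix all their cell types. The number of arrays limits the precision.

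H3K36me3 is placed on the bodies of transcribed genes by SET-domain methyltransferases that act together with elongating RNA polymerase II. In Arabidopsis the main such enzyme is SDG8, whose loss leads to early flowering, and the mark is read by chromodomain proteins such as MRG1 and MRG2. A tile is a printed stretch of the genome, and its log ratio compares ChIP with input DNA. Neither the base of the logarithm nor its direction is given in the sources used here. If the ratio was formed as ChIP over input, a high tile carries more of the mark, and if it was formed the other way, less. No table used here pairs the tiles with genes, positions or sequences, so domains are named by plate, row and column, and their lengths are in tiles. That consecutive identifiers are neighbours in the genome is not stated in the labels.

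Long domains were the tail of a continuous distribution of run lengths. Tiles above 1 numbered 5919 (29.4% of the tiles on these plates) and fell into 1715 runs. The 130 domains made up 7.58% of these runs and held 22.5% of the tiles above 1. Their median length was 10 tiles, and 89 of them (68.5%) were 8 to 10 tiles long. Only 29 reached 12 tiles, 8 reached 16, and the longest held 22. Just inside the length limit there were 38 runs of 8 tiles, and just outside it 59 runs of 7. Run numbers fell gradually across the limit, as the plot of run lengths shows.

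**Figure D1:**
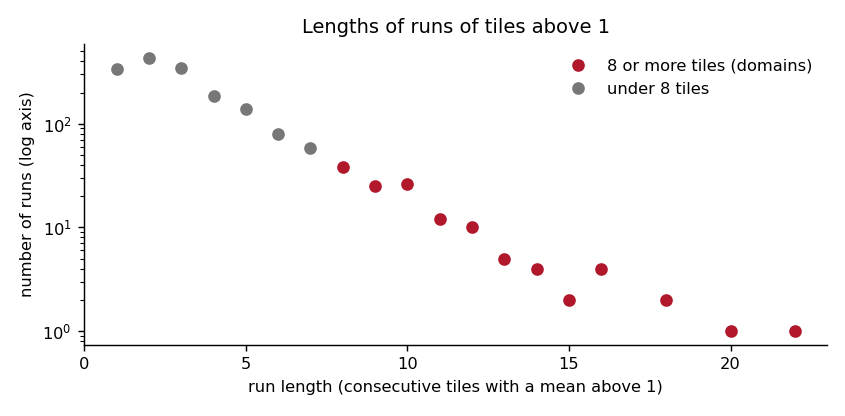
Number of runs (log axis) against run length in consecutive tiles with a mean centred log ratio above 1, for domains of 8 or more tiles and for shorter runs. The count falls without a break across the limit, with 38 runs of 8 tiles and 59 runs of 7.

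The mean centred log ratio of domain tiles was 2.06 ± 0.11 (SD, n = 2), with 2.13 in replicate 1 and 1.98 in replicate 2. The 4585 tiles above 1 outside domains averaged 1.92 ± 0.13 (SD, n = 2), with 2.02 in replicate 1 and 1.83 in replicate 2. Domain tiles were higher than these tiles in each replicate. Both SDs hold the higher level of replicate 1, which the 2 groups share, so they do not measure the spread of the gap. The gap was not tested. Tiles at or below 1 averaged -0.176 in replicate 1 and -0.174 in replicate 2. All 1334 domain tiles were called above the array median by limma (Benjamini-Hochberg adjusted, n = 2), where 38.9% of all probes were called above. That count follows from the choice of tiles and carries no further information. The domain tiles ran from 1.005 to 3.72, with 55.7% above 2 and 2.17% above 3. Outside domains, 45.3% of the tiles above 1 were above 2 and 2.66% above 3. The share above 3 was 0.295% in isolated tiles, 1.61% in runs of 2 and 2.75% in runs of 3 or 4. It was 3.64% in runs of 5 to 7, 2.28% in domains of 8 to 11 tiles and 1.94% in longer domains.

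Domains were no higher than shorter runs once interior and end tiles were taken apart. The 1074 interior tiles of domains averaged 2.12, with 2.19 in replicate 1 and 2.06 in replicate 2. The 260 end tiles averaged 1.78, with 1.89 in replicate 1 and 1.67 in replicate 2. The same levels were found in short runs. Interior tiles averaged 2.11 in domains of 8 to 11 tiles, 2.15 in domains of 12 or more tiles, 2.10 in runs of 5 to 7 and 2.16 in runs of 3 or 4. End tiles averaged 1.78, 1.81, 1.79 and 1.80 in the same groups of runs. Runs of 2 tiles, which are all ends, averaged 1.90, and the 339 isolated tiles averaged 1.60. The interior levels of the 4 groups lay between 2.18 and 2.25 in replicate 1 and between 2.02 and 2.09 in replicate 2. Runs of 3 or 4 were highest in replicate 1, and domains of 12 or more tiles in replicate 2. Among the domains themselves, length and mean had a Pearson r of 0.151 over 130 domains, given as a description, since neighbouring domains share arrays and may share background.

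The longest domain began in row H, column 1 of plate TB07 and ended 22 tiles later in row A, column 10 of plate TB08. Its mean was 2.44 ± 0.04 (SD, n = 2). In replicate 1 its tiles ran from 1.65 through a median of 2.50 to 3.06, and in replicate 2 from 1.56 through 2.41 to 2.95. Every one of its tiles was above 1 in both replicates, and 20 of the 22 had a mean above 2. It was bounded by weakly raised tiles, 0.68 before it and 0.85 after it. The tile before it was itself above 1 in replicate 1, at 1.09, but at 0.26 in replicate 2. Directly beyond the tile at 0.85 the mean was above 1 again, with 2.49, 2.48 and 1.47 in consecutive tiles of plate TB08.

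The second longest domain lay on plate TB84 (row F, column 5 to row G, column 12) and was a lower and more uneven one. Its 20 tiles had a mean of 1.88 ± 0.10 (SD, n = 2). They ran from 1.18 through 1.95 to 2.65 in replicate 1 and from 0.74 through 1.79 to 2.54 in replicate 2. Tiles 6 and 7 of the domain had means of 1.06 and 1.07, with 0.94 and 0.74 in replicate 2. Its length therefore rests on tiles just above the limit. The tiles after it had 0.95 and 0.48, followed by 1.78, 2.85, 3.13, 2.48, 1.95 and 1.26.

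The domains with the highest mean both lay in set TC. The domain of 8 tiles on plate TC12 that began in row B had a mean of 2.61 ± 0.07 (SD, n = 2), with 2.67 in replicate 1 and 2.56 in replicate 2. The domain of 15 tiles on plate TC10 had 2.54 ± 0.01 (SD, n = 2), with 2.55 in replicate 1 and 2.53 in replicate 2. The gap between them was about as large as the SD of the TC12 domain over replicates. The TC12 domain was the higher in each replicate, narrowly in replicate 2, and their order was not tested. The tile before the domain on TC10 had -0.34, and the tiles of the domain declined in the order of identifiers, with 2.72 on average over the earlier 7 tiles and 2.31 over the later 7.

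The domains with the lowest mean both lay in set TA. The domain of 9 tiles that began on plate TA15, row G averaged 1.46 ± 0.09 (SD, n = 2), with 1.52 in replicate 1 and 1.40 in replicate 2, and its highest tile had a mean of 1.70. It was also the most even, with an SD over tiles of 0.172, where the SD within domains reached 0.811. The domain of 8 tiles from TA19 to TA20 averaged 1.57 ± 0.19 (SD, n = 2), with 1.70 and 1.43 in replicates 1 and 2. It ended at a well with no value, in row A, column 2 of plate TA20. Beyond that well, columns 3 and 4 had 2.24 and 1.47, and column 5 had 0.54. Whether the run continued through the empty well is not known.

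The highest tile of any domain was the ninth of 10 in the domain that ended in row E of plate TB53. It had 3.98 in replicate 1 and 3.46 in replicate 2, between neighbours at 2.36 and 2.55. The lowest domain tile closed a domain on plate TC11 with a mean of 1.005 (0.993 in replicate 1 and 1.02 in replicate 2), next to a tile at 0.00212. The highest tile just outside a domain, on plate TC07, had 0.999 (1.05 in replicate 1 and 0.947 in replicate 2). These 2 tiles on either side of the limit differed by less than the spread between replicates.

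**Figure D2:**
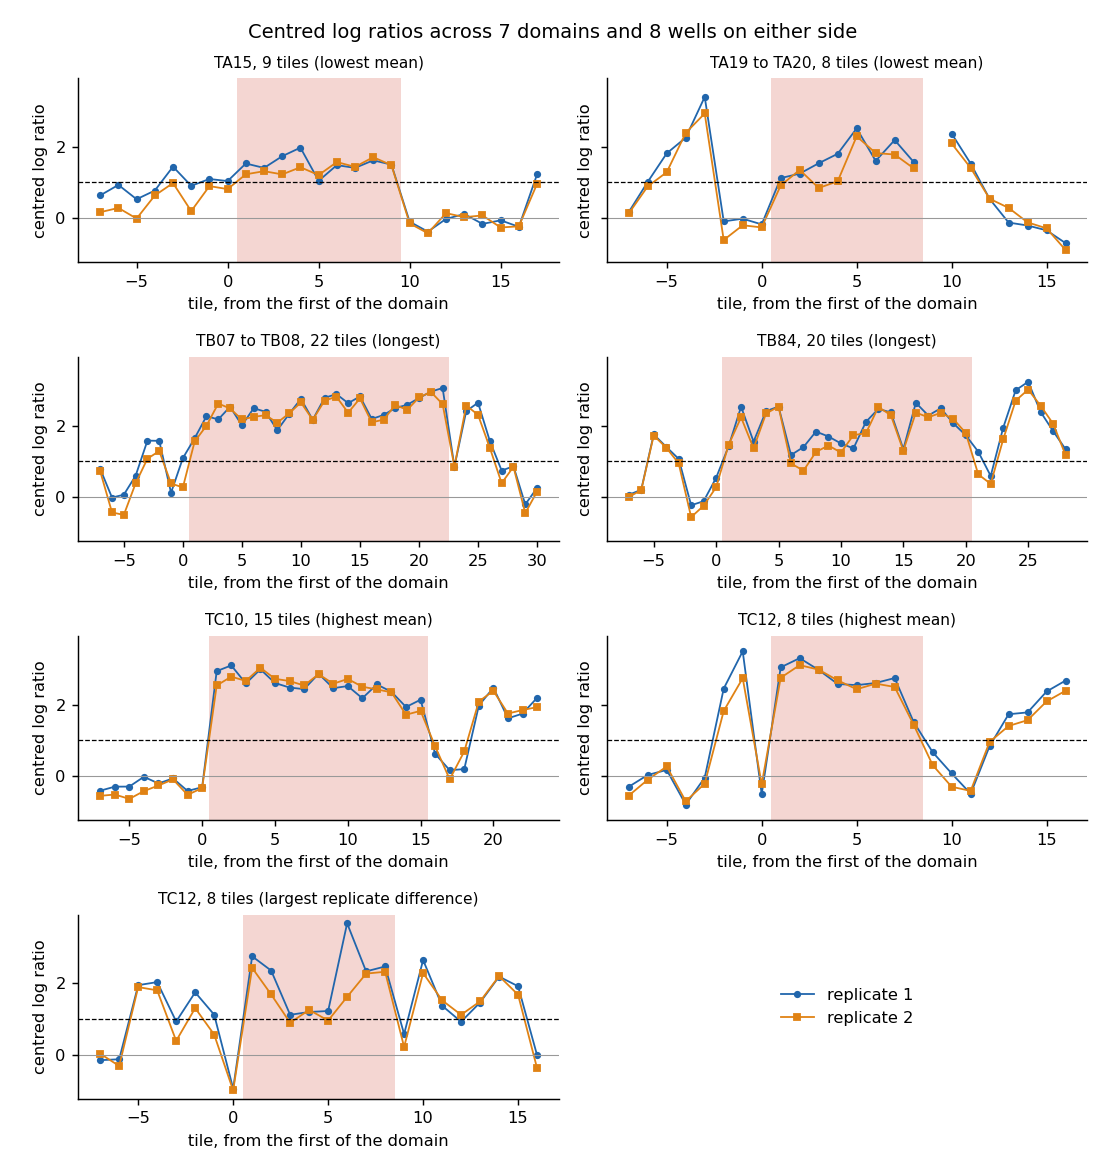
Centred log ratio in replicates 1 and 2 against tile number, counted from the first tile, for the 7 domains described by rule; the shaded span is the domain, the dashed line is the limit of 1 and 8 wells are drawn on either side. The TB07 to TB08 domain stays above 1.5 in both replicates, while the TB84 domain falls to 0.74 in replicate 2, and the second TC12 domain holds 1 tile where the replicates part.

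Tiles varied within domains, with an SD of 0.524 (root mean square over domains). Domain means averaged 2.05 with an SD of 0.220 over domains. In 84 of the 130 domains at least 1 interior tile lay at or below 1.5, and the median over domains of the lowest interior tile was 1.37. Only 17 domains stayed above 1.5 in every tile, and 1 stayed above 2. The highest tile lay in the later part of the domain in 71 cases and in the earlier part in 51. The later tiles were on average 0.07 ± 0.43 higher than the earlier ones (SD over domains), which is small against the variation among domains.

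The rule sets a step at the ends of domains, since every end tile is above 1 and every measured neighbour at or below it. The size of the step is therefore a description. End tiles averaged 1.78 ± 0.53, and the 257 measured tiles next to them averaged 0.38 ± 0.46 (SD over tiles). Of these neighbours, 117 lay above 0.5, 82 between 0 and 0.5, and 58 below 0. The remaining 3 ends were set by wells without a value. In 36 domains both neighbours were at or below 0.5, and in 7 both were below 0. A neighbour above 0.9 bordered 28 domains. In 60 domains the ratio was above 1 again directly beyond the first well on at least 1 side. Further out, the share of tiles above 1 was 25.0% at 2 tiles from the end and 40.4% at 4 tiles. It was 41.5% at 6 tiles, 40.2% at 8 tiles and 34.0% at 10 tiles. The share over all tiles was 29.4% on these plates. By set it was 36.3% in TB, which held most domains, 20.9% in TA and 39.2% in TC. The surroundings pool domains of all sets, and whether they differ from the other tiles of those sets was not tested. The plot of the profile at both ends shows the same shape in each replicate.

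**Figure D3:**
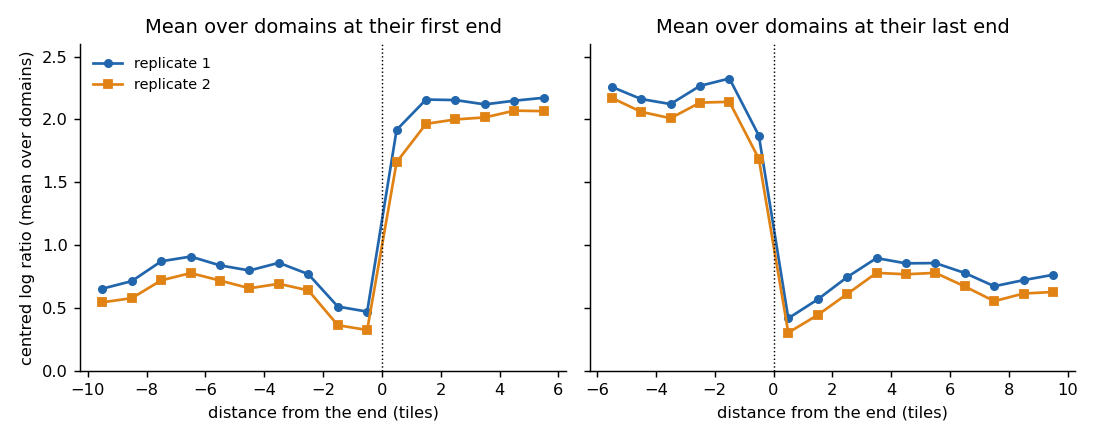
Centred log ratio averaged over the 130 domains (up to 4 tiles inside; 92 and 41 domains at 5 and 6 tiles inside) against distance in tiles from the first end and from the last end, for replicates 1 and 2. In both replicates the end tile averages above 1.6 and the next tile inside about 2 or more, against below 0.5 in the first tile outside.

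Since the choice used both replicates, domains were also chosen in 1 replicate by the same limits and read in the other, which had no part in that choice. Replicate 1 alone gave 146 domains with 1530 tiles, and these tiles averaged 1.93 in replicate 2, where 91.6% of them were above 1. Replicate 2 alone gave 111 domains with 1109 tiles, and these averaged 2.15 in replicate 1, where 97.8% were above 1. The mean of every domain was above 1 in the replicate not used, with the lowest at 1.30 for the 146 domains and 1.47 for the 111. Tiles above 1 outside these domains reached 87.7% above 1 in replicate 2 (4653 tiles chosen in replicate 1) and 97.0% in replicate 1 (4534 tiles chosen in replicate 2). High tiles in long runs and elsewhere were therefore found again at similar rates.

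Recovery of a whole domain was read as every tile above 1 in the other replicate. That is stricter than the share of single tiles above 1, so the 2 rates cannot be set against each other. Of the 146 domains of replicate 1, 60 (41.1%) had every tile above 1 in replicate 2, and of the 111 domains of replicate 2, 90 (81.1%) had every tile above 1 in replicate 1. Both lists shared 1000 tiles, which were 65.4% of the tiles chosen in replicate 1 and 90.2% of those chosen in replicate 2. The step at the ends was present in the replicate that had not set it. For domains chosen in replicate 1, end tiles averaged 1.59 and their neighbours 0.24 in replicate 2, and for domains chosen in replicate 2 the values in replicate 1 were 1.88 and 0.55. Of the neighbours of domains chosen in replicate 2, 49 of 219 were above 1 in replicate 1, so some of these domains extended further there. For domains chosen in replicate 1, 15 of 289 neighbours were above 1 in replicate 2. These values depend on the scale of the replicates. After quantile normalization, which gives both the same distribution, 81 of 126 domains chosen in replicate 1 (64.3%) had every tile above 1 in replicate 2, and 87 of 131 chosen in replicate 2 (66.4%) had every tile above 1 in replicate 1. The shared tiles were then 79.4% and 76.9% of the lists of replicates 1 and 2. Of the neighbours of domains chosen in replicate 2, 29 of 259 were then above 1 in replicate 1. In the other direction, 21 of 249 neighbours were above 1 in replicate 2.

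Replicate 1 lay above replicate 2 in 116 of the 130 domains, by 0.154 ± 0.127 on average (SD over domains). The difference ran from -0.190 in a domain on plate TB58 to 0.464 in the domain of 8 tiles on plate TC12 that began in row F. This difference was not particular to domains, since it averaged 0.150 over domain tiles and 0.185 over the other tiles above 1, against -0.0017 over tiles at or below 1. After quantile normalization it averaged -0.02 over domains, and replicate 1 was higher in 53 of 130. The order of domain means was shared, with a Pearson r of 0.849 between replicates over the 130 domains and 0.887 over the 1334 tiles, both descriptive because domains and tiles of an array are not independent. In the TC12 domain 1 tile made up most of the gap, with 3.69 in replicate 1 and 1.62 in replicate 2. That difference of 2.07 was the largest of any domain tile. Over the other 7 tiles of the domain the means were 1.93 in replicate 1 and 1.69 in replicate 2.

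**Figure D4:**
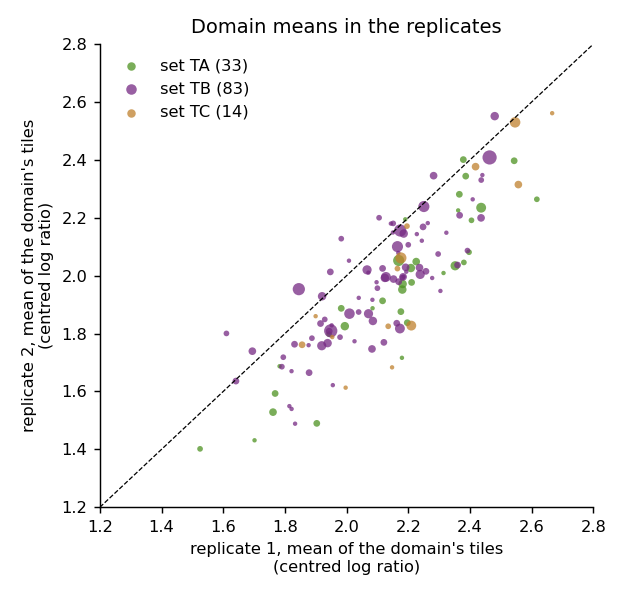
Mean centred log ratio of each domain in replicate 2 against replicate 1, coloured by plate set (33 domains in TA, 83 in TB and 14 in TC), with larger points for longer domains and a dashed line where both are equal. In 116 of the 130 domains the point lies below the line, and the means run from 1.52 to 2.67 in replicate 1 and from 1.40 to 2.56 in replicate 2.

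Domains were spread unevenly over the identifier order. Set TB held 83 domains with 857 tiles, set TA held 33 with 333 tiles, and the plates TC00 to TC13 held 14 with 144 tiles. Per 1000 tiles with a value there were 8.66 domains in TB, 3.56 in TA and 10.9 in TC. The spread depends on the limit, since TB held 64.2% of domain tiles at a limit of 1 and 47.4% at 1.5. The share of tiles above 1 was also lowest in TA, at 20.9%, against 36.3% in TB and 39.2% in TC. The share of tiles above 1 that lay in domains differed too, at 24.6% in TB, 17.2% in TA and 28.6% in TC. These shares were not tested, because the tiles of a run are not independent. The mean of domain tiles differed little between sets, at 2.04 in TB, 2.07 in TA and 2.14 in TC. The SD of 0.11 between replicates holds the higher level of replicate 1 in every set, so it does not measure the spread of these differences. In replicate 1 the means were 2.10 in TB, 2.17 in TA and 2.23 in TC, and in replicate 2 they were 1.98, 1.97 and 2.06. TC was highest in each replicate, while the order of TB and TA changed. These differences were not tested.

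Within set TA, domains were frequent at the start and rare in the middle. Plates TA01 to TA17 held 14 domains with 137 tiles, or 8.41% of their tiles. Plates TA18 to TA29 held 2 domains, TA30 to TA36 held 3, and TA37 to TA51 held 0 of 1338 tiles in domains. The longest run above 1 on TA37 to TA51 held 5 tiles. Plates TA52 to TA99 again held 14 domains, 3.18% of their tiles. In set TB the share was 7.90% on plates TB00 to TB49 and 10.0% on TB50 to TB99, and it was 11.2% on TC00 to TC13.

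Some domains lay close to each other. How many close intervals the uneven spread over plates alone would give was not computed. The median interval between consecutive domains was 53 wells, 32 of the 129 intervals were under 20 wells, and 7 were of 3 wells or fewer. In 3 places a domain was parted from the next by 1 tile alone, which had 0.44 on plate TB10, 0.91 on TB57 and 0.85 on TB85. On plate TB03, 3 domains of 9, 8 and 12 tiles followed each other with 3 low tiles in each interval, the highest of which had 0.36. At the other extreme, the longest interval ran from TA36 to TA53 over 1652 wells, of which 1550 had a value and 52 were above 1. The next longest, from TA55 to TA67, covered 1140 wells. Domain tiles were found on 89 of the 213 plates, and no plate held the start of more than 3 domains. Plate TB08 held the most domain tiles, 36 of its 96 wells, followed by TB80 with 34.

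**Figure D5:**
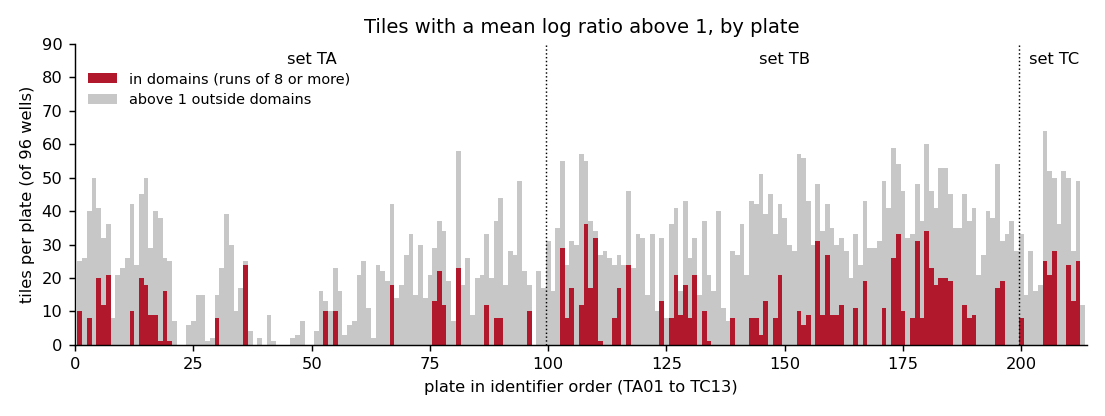
Tiles per plate with a mean centred log ratio above 1, in identifier order, split into tiles of domains and tiles above 1 outside domains. Domain tiles are absent from TA37 to TA51 and reach 36 on TB08.

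On the printed plates, with 12 columns to a row, 84 of the 130 domains ran across the end of a row and 10 across the end of a plate. A run of up to 12 tiles can lie within 1 row, and only a longer one must cross a row end. The number of crossings to be found without any part of the layout was not computed. These counts therefore do not show whether the layout plays a part. Domain tiles per column of the plate numbered between 98 in column 1 and 121 in column 9, and per row between 141 in row H and 198 in row C. Domain starts per column ranged from 5 (column 11) to 20 (column 3) and ends from 4 (column 7) to 20 (column 12), on counts too small to read an order from.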

How the data were processed

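The table deposited by the authors holds 1 log ratio of the ChIP and input dyes per probe and array, treated here as a score because its base is not given in the sources used here. Its direction, background correction and normalization are not given there either. Both arrays of each dye exchange held the same value at every probe and were taken as 1 column. Of 21800 identifiers, 21685 had a value, and 0 of the 21761 of plate-and-well form matched the RefSeq gene table (TAIR10.1), and genes are therefore left unnamed.

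The values of each replicate were set relative to their median over all probes (-1.22 in replicate 1, -1.10 in replicate 2, as deposited), and both were averaged. On plates TA01 to TC13, 308 of 20448 wells had no value. Runs above 1 of at least 8 identifiers were domains. limma 3.58.1 in R 4.3.3 (lmFit, eBayes, two-sided, Benjamini-Hochberg threshold 0.05) tested each of the 21685 probes against the median. Both steps were checked on simulated data. The rule names the 2 longest, 2 highest and 2 lowest domains, the one with the largest replicate difference, and the highest and lowest domain tile; the tile just outside was added. Members and lists were chosen with earlier results of these data known. Alternatives changed the replicates used, centring, normalization, limits, plate ends, bridging, sign and reading order.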

Additional observations from a re-analysis of the deposited data

Results flagged for a closer look

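Runs as long as domains also occurred on plates outside TA01 to TC13, whose place in the identifier order is not given in the sources used here and which no comparison above uses. On plate TD01, 22 consecutive tiles from row C, column 10 to row E, column 7 were above 1, as many as in the longest domain. Their mean was 2.08 ± 0.05 (SD, n = 2), with 2.05 in replicate 1 and 2.12 in replicate 2, and they ran from 1.30 through a median of 2.14 to 2.46. The tiles next to this run had 0.66 and 0.85, and 48 of the 96 tiles of the plate were above 1. On plate PD02, 8 tiles of row E were above 1, with a mean of 1.83 ± 0.12 (SD, n = 2). On the 13 plates from TC17 to TC30, 11 of 1133 tiles were above 1 and the longest run held 4. The groups of 2 replicates are too small for a search for outlying samples.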

How the results depend on the processing

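The number of domains and of their tiles depends on the centring, the limits and the reading order. There were 5 domains with 50 tiles without centring, 281 with 3257 at a limit of 0.5, 40 with 397 at 1.5, 269 with 2227 at a minimum of 6 tiles, 29 with 413 at 12, and 236 with 2814 when 1 identifier was bridged. Turning every sign gave 1 run with 10 tiles below -1 and a mean of -1.24. Reading the wells column by column, chosen after seeing the data, gave 4 domains with 46 tiles. Single replicates gave 111 to 146 domains with 1109 to 1530 tiles. Quantile normalization (130 domains, 1336 tiles), both replicates above 1 (101, 993) and plate ends as breaks (129, 1302) stayed within 1.5 times the values reported. limma called 4542 probes above without centring and 6685 to 8562 under its other settings. The share of domain tiles in set TB was 47.4% at a limit of 1.5, against 64.2% at the limit of 1. Set TB held 9581 of the 20140 tiles with a value. Leaving out a replicate leaves limma no residual degree of freedom, so no count is given. No paired analysis was possible because there is 1 group. No depth limit applies to arrays, and signal over background was not used here.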
